A study of Mus musculus with 24 samples.

Results

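Imprinted genes are expressed from only the maternal or only the paternal chromosome. At the control region of an imprinted domain, CpGs are methylated on one parental chromosome and free of methylation on the other, so that the average over both copies in a tissue can lie near 50%. The mark is set in the egg or the sperm, is kept through the demethylation of the early embryo with the help of the zinc finger protein ZFP57, and many of the genes it marks act in growth, energy balance and the brain. The measurements below cover the CpGs within 3 kb of every annotated transcript start of 30 imprinted genes. The genes were chosen by name and not by their values, though earlier results of these data were known. They gave 850 CpGs out of the 694379 CpGs of the whole table, and 29 of the 30 genes had at least 1 measured CpG, of the 55450 genes in the annotation. Ndn, which codes for the growth suppressor necdin, had none.

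The data came from 24 female C57BL/6JRj mice in 3 groups of 8. Young STD mice were 3 months old and lived in standard cages. Aged STD mice were 17 months old and lived in standard cages, and aged ENR mice were 17 months old and had spent 3 months in an enriched environment (ENR), a large cage with toys and tunnels. The labels name no transgene and no drug. All mice belonged to 1 inbred strain, and reads were not assigned to parental chromosomes, so a value near 50% does not show which copy is methylated. DNA of the micro-dissected dentate gyrus, the hippocampal region where new neurons form in adult life, was profiled by reduced representation bisulfite sequencing (RRBS), which reads CpGs close to the cut sites of the enzyme MspI. The values are the percentage of reads that were methylated at a CpG in a mouse. A mouse had a value at 308751 to 608017 of the CpGs. The number of reads behind a percentage is unknown, so no interval is given for a single value. A percentage averages all cells of the dissected tissue, so that a change in the mix of cells and a change within cells cannot be told apart. The aged STD mouse 5 stood apart from the rest, with a mean of 23.6% over all its CpGs, whereas the other 23 mice had 35.8% to 44.5%.

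A CpG was counted as near 50 when the mean of its 3 group means lay between 35% and 65%. Of the 850 CpGs, 276 (32.5%) were near 50, beside 6.75% of all CpGs in the table and 3.89% of the CpGs within 3 kb of any transcript start. A further 286 were under 10% and 33 were over 90%. The stricter count of CpGs with each of the 3 group means between 35% and 65% gave 66 of 850 (7.76%), beside 1.16% of all CpGs. Genes whose germline control region is methylated on the maternal chromosome held 233 near-50 CpGs of 552 (42.2%). Genes of domains with a paternally methylated control region held 6 of 162 (3.7%), and the further genes of imprinted domains held 37 of 136 (27.2%). The windows do not reach the germline control regions known for Rasgrf1 and for the Dlk1 and Meg3 domain. H19 had only 3 measured CpGs. The 3.7% is therefore not a measure of the paternally methylated control regions themselves.

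**Figure D1:**
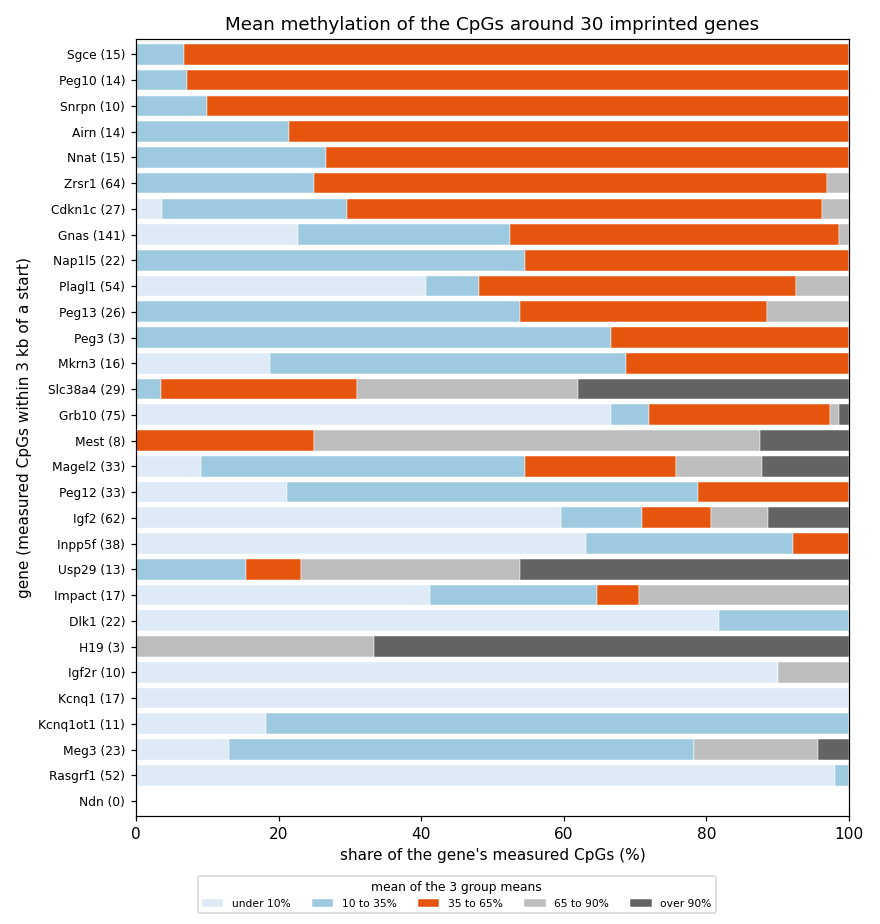
Share of the measured CpGs of each of the 30 genes (rows, with the number of CpGs) that fall into 5 classes of mean methylation, where the mean is that of the 3 group means. Orange marks CpGs between 35% and 65%, which make up 93.3% of the CpGs of Sgce, 92.9% of those of Peg10 and none of those of Rasgrf1, Kcnq1 or Dlk1.

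Stretches of near-50 CpGs were then joined into segments. A segment holds at least 5 near-50 CpGs with gaps of at most 500 bp, and they make up at least 60% of its measured CpGs. The whole table gave 762 such segments, of which 13 overlapped the windows of the imprinted genes. These 13 lay at 11 of the 30 genes. Another 111 were on the X chromosome, on which female cells silence a randomly chosen copy, and 638 were on other autosomal regions. The 13 segments held a median of 11 CpGs over 177 bp, with a median level of 44.4%. The X segments had a median of 9 CpGs and 41.6%, and the other autosomal segments had 7 CpGs and 49.0%. In a list of 45 other imprinted genes, 3 had a near-50 segment (Nespas, Commd1 and Blcap), and all of these are neighbours whose windows hold segments already counted at Gnas, Zrsr1 and Nnat.

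Sequences of the segments are shown where the stretch was free of annotated untranslated exon sequence, to let the CpG content of these loci be seen beside the values. They are read 5′ to 3′ on the plus strand of the GRCm38 assembly as RefSeq gives it. Capitals mark TGCCGC or its reverse complement GCGGCA, the hexamer that ZFP57 is known to bind when methylated. The stretches are chr10:13091025-13091117 for Plagl1 (11 CG dinucleotides in 93 bases, of which 1 position was measured), chr11:12026767-12026882 for Grb10 (10 in 116), chr17:12742236-12742378 for Airn (10 in 143), chr2:157560418-157560479 for Nnat (8 in 62) and chr7:60005112-60005230 for Snrpn (9 in 119).
Plagl1: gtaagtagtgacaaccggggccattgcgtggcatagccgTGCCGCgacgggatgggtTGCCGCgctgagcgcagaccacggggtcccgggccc
Grb10: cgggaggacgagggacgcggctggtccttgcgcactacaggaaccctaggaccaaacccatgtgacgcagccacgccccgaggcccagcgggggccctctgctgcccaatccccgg
Airn: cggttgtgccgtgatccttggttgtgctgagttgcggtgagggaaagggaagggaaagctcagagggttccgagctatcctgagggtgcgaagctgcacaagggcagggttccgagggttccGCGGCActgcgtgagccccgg
Nnat: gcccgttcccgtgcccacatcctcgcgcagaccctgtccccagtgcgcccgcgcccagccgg
Snrpn: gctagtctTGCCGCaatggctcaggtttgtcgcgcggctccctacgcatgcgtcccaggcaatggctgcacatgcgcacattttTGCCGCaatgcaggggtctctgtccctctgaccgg
In the 300 bases at the middle of each segment, searched on both strands, the hexamer was found in 4 of the 13 imprinted segments (30.8%), namely Plagl1, Airn, Nnat and Snrpn. The shares were 17.1% of the X segments, 7.99% of the other autosomal segments and 11.6% of 32851 RefSeq promoters of the same length.

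The longest segments lay at the starts of the maternally marked genes Zrsr1, Gnas and Plagl1. Zrsr1 is related to a splicing factor gene and lies within Commd1, a copper metabolism gene. Its first segment, chr11:22971902-22973169, covered the gene's start, in exons of Zrsr1 and Commd1, with 54 CpGs at a mean of 37.9%. All 24 mice had a level here, from 12.98% through a median of 36.6% to 67.2%, and 18 of them lay between 25% and 75%. The level of a mouse is the mean of its covered CpGs, and at least 3 are required. It was 33.6% ± 19.6 (SD, n = 8) in the young STD group, 40.1% ± 9.34 (n = 8) in the aged STD group and 37.5% ± 15.4 (n = 8) in aged ENR mice. Of the 13 segments, this one had the smallest SD over all 24 mice (14.9 points) and within each aged group, while Plagl1 and Gnas segment 3 had smaller SDs in young mice. The 3 groups overlapped. The second segment, chr11:22974077-22974253, with 7 CpGs at 44.4%, ranged from 0% to 100% in 16 mice. Its 4 young STD mice had 21.8%, 55.5%, 73.3% and 79.8%. The 6 aged STD mice ranged from 0% through a median of 26.2% to 60%, and the 6 aged ENR mice from 0% through 55.6% to 100%, so that the groups overlapped.

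Gnas, which codes for the stimulatory G protein subunit and has several imprinted first exons, held 3 segments. Segment 3, chr2:174327850-174328781, lies 292 bp inside an annotated start and had 33 CpGs, all of them near 50, at a mean of 48.0%. Its level was 40.4% ± 17.0 (SD, n = 8) in the young STD group, 44.0% ± 27.7 (n = 8) in the aged STD group and 50.5% ± 26.3 (n = 8) in aged ENR mice. The 3 groups overlapped, with single mice from 1.15% to 93.0%, and the lowest was the aged STD mouse 5. Segment 2, chr2:174298031-174298437, had 11 CpGs at 53.2% and 13 of 22 mice between 25% and 75%. Levels there ran from 0% through a median of 59.9% to 90.8% in 7 young STD mice. They ran from 14.3% through 58.6% to 81.0% in 8 aged STD mice and from 0% through 54.8% to 92.7% in 7 aged ENR mice. Segment 1, chr2:174285166-174285424, is shared with the antisense transcript Nespas. The maternal class was given to Gnas as a gene and not to each of its starts. It had 5 CpGs at 43.7%, and only 1 of its 11 mice lay between 25% and 75%.

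Plagl1, a zinc finger transcription factor that restrains growth, had 28 CpGs at 50.02% in chr10:13090744-13091189, with the middle 46 bp before an annotated transcript start. Young STD mice lay between 48.1% and 70.8% with a median of 57.0%. Aged STD mice ranged from 16.1% through 40.3% to 73.2%, and aged ENR mice from 6.75% through 42.7% to 81.4%. The young mice were the most alike, with an SD of 8.4 points beside 16.8 for the aged STD and 29.3 for the aged ENR group, each over 8 mice, and all 3 ranges overlapped. The difference in spread was not tested.

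The shared promoter of Peg10, a gene of retrotransposon origin, and Sgce, which codes for a sarcoglycan, had 14 CpGs at 39.4% (chr6:4747355-4747490, in an exon of Peg10). The level there was 0% to 90.4% in the young STD group, 0% to 100% in the aged STD group and 0% to 70.5% in aged ENR mice, with medians of 32.2%, 49.8% and 11.1%. Snrpn codes for a splicing protein of neurons and starts at the control region of the Prader-Willi domain. It had 9 CpGs at 42.1% (chr7:60005043-60005229, in exons of Snrpn and Snurf), and 7 of 22 mice lay between 25% and 75%. The 7 young STD mice ranged from 0% through a median of 30.6% to 77.5%, the 7 aged STD mice from 3.71% through 23.4% to 100%, and the 8 aged ENR mice from 0% through 50.5% to 100%. Grb10, an adaptor that dampens insulin signalling, had 12 CpGs at 41.6% in an intron. The 8 young STD mice ranged from 0% through a median of 16.4% to 70.4%, the 7 aged STD mice from 1.81% through 76.2% to 100%, and the 7 aged ENR mice from 28.01% through 49.8% to 89.1%. At these 3 loci the groups overlapped.

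Airn is the long noncoding RNA that silences Igf2r in cis. It had 11 CpGs at 42.0%, 908 bp inside a transcript start and within an Igf2r intron. The 7 young STD mice ranged from 0% through a median of 45.0% to 73.2%, the 6 aged STD mice from 0% through 23.2% to 58.1%, and the 6 aged ENR mice from 1.65% through 56.5% to 87.1%. Nnat codes for neuronatin, a small membrane protein of neurons, and lies within an intron of Blcap. Its 9 CpGs at 45.5% were all read from 1 fragment end. The 7 young STD mice ranged from 0% through a median of 100% to 100%. The 5 aged STD mice had 0%, 5.40%, 53.97%, 54.5% and 65.2%, and the 5 aged ENR mice had 0%, 23.3%, 31.8%, 50.5% and 58.6%. At Airn and Nnat all 3 groups overlapped, and 4 young STD mice at Nnat were above every aged mouse. Cdkn1c, a cell cycle inhibitor whose promoter mark is acquired after fertilization, had 8 CpGs at 49.2% (chr7:143460076-143460142). Its 4 young STD mice had 24.8%, 26.0%, 61.4% and 64.2%, and its 4 aged STD mice had 6.82%, 36.1%, 54.7% and 91.1%. The 6 aged ENR mice ranged from 10.03% through a median of 63.5% to 100%, again with overlap.

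**Figure D2:**
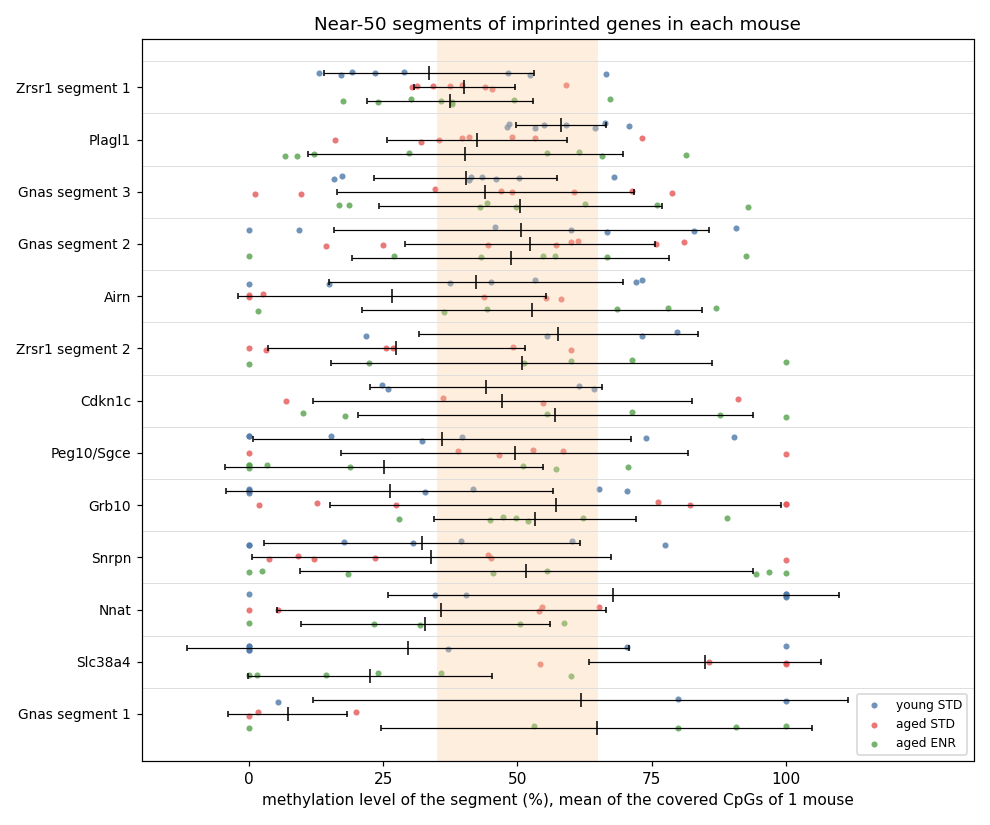
Methylation level (x axis, %) of the 13 near-50 segments (rows, ordered by their SD over all mice) in each mouse, coloured by group, with the group mean and SD in black and the band from 35% to 65% shaded. Levels lie closest together at Zrsr1 segment 1 and Plagl1 and reach both 0% and 100% at Grb10, Snrpn, Nnat, Slc38a4 and other segments.

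The question of how stable these loci are was addressed with the SD over mice within a group. Its median over the 13 segments was 29.4 points in the young STD group, 27.7 in the aged STD group and 29.5 in aged ENR mice. With near 50 set at 40% to 60%, which left 9 segments, these were 38.5, 31.0 and 26.3 points, so that the order of the groups was not stable. The X segments gave 25.2, 24.6 and 22.1 points, and the other autosomal segments 23.4, 24.8 and 22.5 points. Over all segment levels, 45 of 85 (52.9%) in the young STD group, 45 of 80 (56.3%) in the aged STD group and 44 of 88 (50%) for aged ENR mice lay between 25% and 75%. No difference between groups in these shares or SDs was tested. Of the 3255 single CpG values in the 13 segments, 48.1% were exactly 0% or 100% and 26.9% lay between 35% and 65%. The shares at exactly 0% or 100% were 47.5% for X segments and 52.8% for other autosomal segments. In all 3 classes a mean near 50% was thus made up in part of values at either extreme.

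Mice with a value at more CpGs had more intermediate values. The 3 mice with the widest coverage (aged STD 6, aged ENR 4 and aged ENR 8, each with at least 587562 covered CpGs) had 55.7% to 70.6% of their values in the 13 segments between 25% and 75%. The other 21 mice, with at most 490046 covered CpGs, had 12.8% to 49.4%. Because the 3 mice form a cluster of their own, the relation was computed over the 21. The share was higher in mice with wider coverage (Pearson r = 0.629, permutation p = 0.00212, adjusted p = 0.00636, and Spearman rho = 0.653, permutation p = 0.00176, adjusted p = 0.00528, n = 21). Leaving out aged ENR mouse 1 and young STD mouse 8, the 2 farthest from the median in coverage, gave r = 0.607. Within groups r was 0.836 over 8 young STD, 0.595 over 7 aged STD and 0.509 over 6 aged ENR mice. Over the same 21 mice, X segments gave r = 0.425 (permutation p = 0.0504, adjusted p = 0.0504) and rho = 0.519 (permutation p = 0.0171, adjusted p = 0.0171). Other autosomal segments gave r = 0.481 (permutation p = 0.0231, adjusted p = 0.0347) and rho = 0.555 (permutation p = 0.0101, adjusted p = 0.0151). The 3 relations of each kind were adjusted together, and differences between the classes were not tested. In the 5 mice with the most covered CpGs, a choice made after seeing the data, the median SD of the 13 segments was 20.7 points beside 30.8 over all 24 mice, and 43 of 63 levels (68.3%) lay between 25% and 75%. In the same 5 mice the X segments had 16.3 points beside 24.1 and the other autosomal segments 16.9 beside 24.8, with 72.6% and 77.7% of levels between 25% and 75%. How far read depth sets the spread was not tested.

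**Figure D3:**
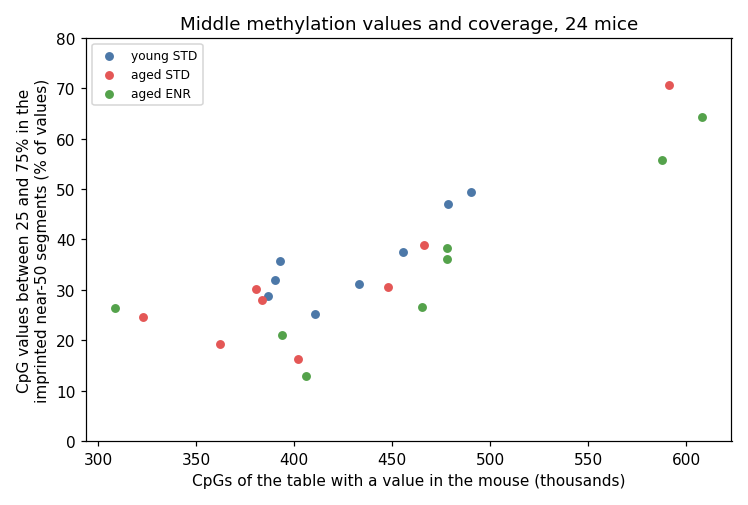
Share of single CpG values between 25% and 75% in the 13 imprinted segments (y axis, %) against the number of CpGs with a value in the mouse (x axis), 1 point per mouse and coloured by group. The 3 mice with at least 587562 covered CpGs have 55.7% to 70.6%, and the other 21 have 12.8% to 49.4%.

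Although mice differed widely, CpGs next to each other agreed closely within a mouse. A fragment end is 1 strand of 1 MspI fragment, whose CpGs are read together. Over 2563 pairs of neighbouring CpGs of a fragment end, the mean difference in the 13 imprinted segments was 4.40 points, and 57.0% of pairs were identical. The X segments had 18.3 points over 15077 pairs and the other autosomal segments 24.6 points over 48973 pairs. Averaged by mouse, imprinted segments had 4.30 ± 1.75 points (SD, n = 24), X segments 18.5 ± 2.67 and other autosomal segments 24.8 ± 1.72. The imprinted segments had the smaller difference in 24 of 24 mice, with a difference of −14.2 ± 3.21 points (SD) from the X segments and −20.5 ± 2.83 from the other autosomal segments (2-sided permutation test with random sign changes over 24 mice, adjusted p = 2e-05 for both, the smallest that these permutations can give). Mice, not segments, were the replicates of this test, which was chosen after seeing the data. Every mouse was compared over the same set of segments, so the p does not cover the spread between segments. With pairs at most 20 bp apart the differences were −14.1 and −19.0 points. With values of exactly 0% or 100% left out they were −7.27 and −10.6 points, and again the imprinted segments were lower in 24 of 24 mice.

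By segment, the mean difference of neighbours ran from 0.521 points at Gnas segment 1 through a median of 4.02 to 10.3 at Gnas segment 2 and 17.2 at Cdkn1c. None of the 111 X segments and 7 of the 638 other autosomal segments (1.10%) were at or under the imprinted median. Up to the value of Cdkn1c, 48 X segments (43.2%) and 129 other autosomal segments (20.2%) were included. Different fragment ends of 1 imprinted segment in the same mouse had a median difference of 33.6 points over 1054 pairs, while that of neighbouring CpGs was 0. The plus and minus strands of the same CpG, which come from different fragments or ends, differed by a median of 28.1 points over 235 pairs. The same CpG in a pair of mice of a group differed by a median of 37.8 points. X segments gave 30, 28.5 and 33.3 points for these 3 measures and other autosomal segments 31.3, 31.5 and 36.8 points, and their medians for neighbouring CpGs were 1.54 and 3.45 points.

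**Figure D4:**
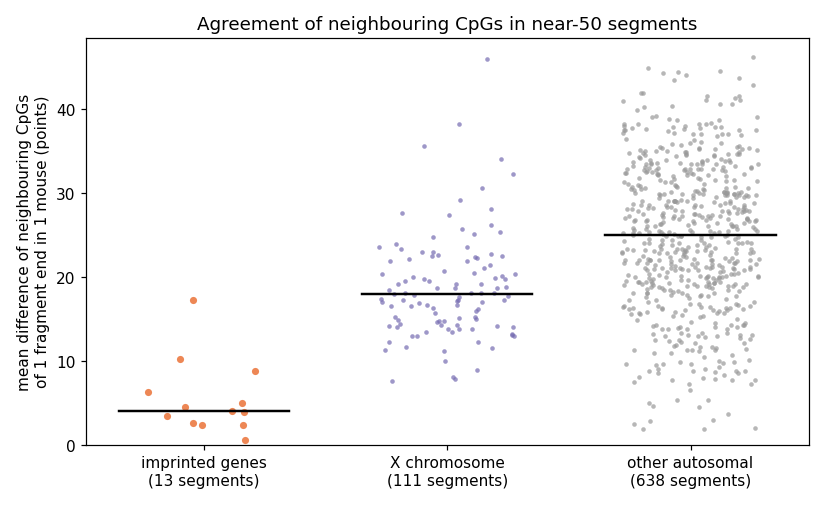
Mean absolute difference (points) between neighbouring CpGs of 1 fragment end in 1 mouse for each near-50 segment, for the 13 segments of imprinted genes, 111 on the X chromosome and 638 other autosomal ones, with medians as black lines. Most imprinted segments lie under the X segments, with Cdkn1c, at 17.2 points, as the highest of the imprinted ones.

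The number of fragment ends also went with the spread over mice. The 8 imprinted segments with 1 or 2 fragment ends had a median SD over all mice of 34.4 points. The 4 with 3 to 5 ends had 25.7 points, and Zrsr1 segment 1, with 11 ends, had 14.9 points. X segments with 1 or 2, 3 to 5 and at least 6 ends had 29.4, 22.4 and 17.2 points. Other autosomal segments had 27.4, 22.2 and 17.4 points. The number of segments in each class differed, and the trend was not tested.

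The remaining genes had no near-50 segment. Nap1l5, a retrogene in an intron of Herc3, and Peg13, a noncoding RNA gene in an intron of Trappc9, had the highest shares of near-50 CpGs among them (45.5% and 34.6%), with window means of 37.0% over 22 CpGs and 42.8% over 26 CpGs. The window level of Nap1l5 was 43.5% ± 31.2 (SD, n = 8) for young STD, 40.9% ± 29.9 (n = 7) for aged STD and 37.0% ± 22.6 (n = 7) for aged ENR mice. That of Peg13 was 34.3% ± 24.2, 45.0% ± 13.9 and 44.5% ± 29.1 (n = 8 each). Peg3, a zinc finger gene, had only 3 CpGs, with group means of 70.3% for young STD, 2.51% for aged STD and 23.6% for aged ENR mice, which average 32.1%. These 3 CpGs were too few for a window test and are shared with the divergent neighbour Usp29, whose 13 CpGs averaged 78.3%. Mest, which codes for a hydrolase-like protein, had 8 CpGs at 70.9%. Impact, a regulator of translation on chromosome 18, had 17 CpGs at 34.8%, and Inpp5f, a phosphatase gene with an imprinted variant, had 38 at 8.60%. Kcnq1ot1, the noncoding RNA that starts in the control region of the Kcnq1 domain, had 11 CpGs at 12.4%, with a median level of 0% in the young STD group, 18.1% in the aged STD group and 0% in aged ENR mice. The potassium channel gene Kcnq1 was at 2.74% over 17 CpGs.

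In the domains with a paternally methylated control region no gene had a near-50 segment. The growth factor gene Igf2 had 62 CpGs at 26.9%, 6 of them near 50. The 3 CpGs of the noncoding H19 gene averaged 92.5%. In the other domains, the noncoding Meg3 gene had 23 CpGs at 32.9% with CpG means from 0% to 93.7% and none near 50, and Dlk1, which codes for a membrane ligand, was at 4.47% over 22 CpGs. Rasgrf1, a Ras exchange factor of neurons, was at 1.93% over 52 CpGs. The germline control regions known for Rasgrf1 and for the Dlk1 and Meg3 domain lie farther upstream than these windows reach. Among further genes, the receptor gene Igf2r had 10 CpGs at 10.5%. In the Prader-Willi domain, the ubiquitin ligase regulator Magel2 had 33 CpGs at a mean of 44.0% and 7 near 50, with CpG means from 3.21% to 100% that were higher farther from the start. Mkrn3, a ubiquitin ligase, had 16 CpGs at 26.4% and Peg12 33 at 22.9%.

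**Figure D5:**
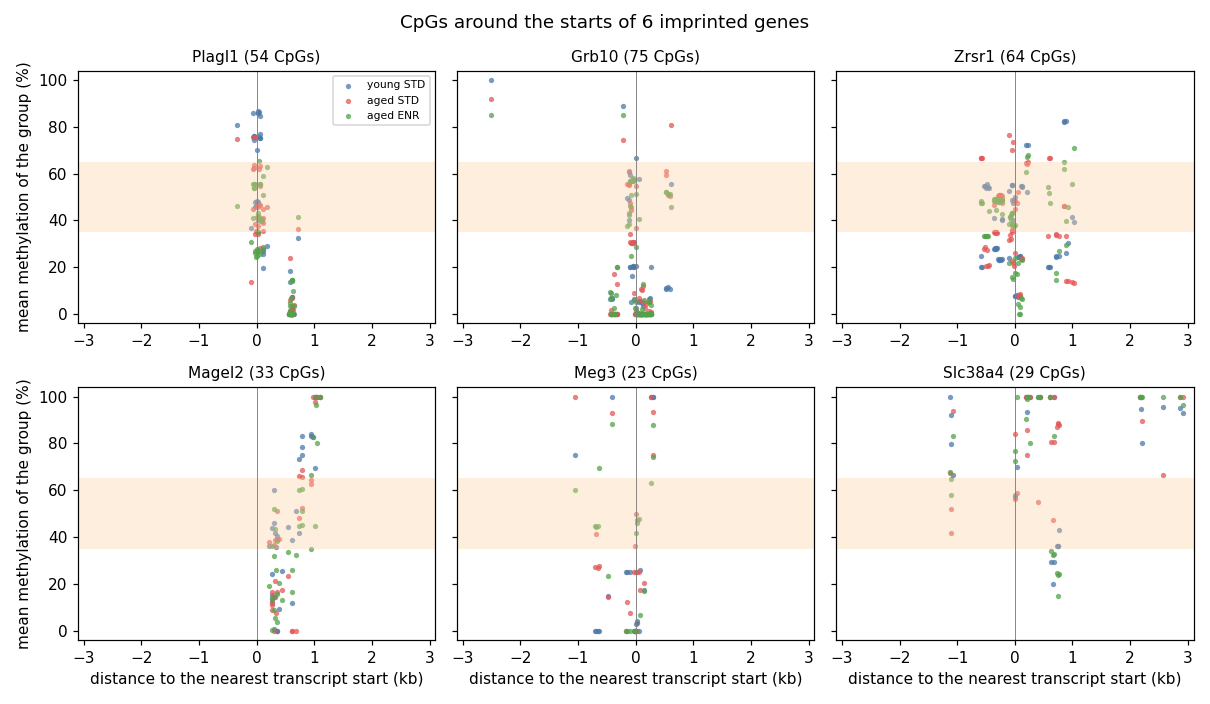
Group mean methylation (y axis, %) of each CpG against the distance to the nearest transcript start of the gene (x axis, kb, positive inside the transcript), for 6 genes and 3 groups, with the band from 35% to 65% shaded. Plagl1 and Zrsr1 have dense CpGs in the band at the start, Grb10 has near-50 CpGs beside a start with values near 0%, Magel2 is higher farther from its start, and Meg3 and Slc38a4 hold CpGs on both sides of the band.

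The effect of aging was tested as aged STD minus young STD, and that of ENR as aged ENR minus aged STD, with limma over all near-50 segments and Benjamini-Hochberg adjustment over all of them. Both comparisons use the same aged STD mice. For the fit, each CpG was first centred on its own mean, so that mice with different covered CpGs could be compared. No imprinted segment was called at an adjusted p under 0.05 in either comparison. Over all 761 segments tested, 0% were called for aging and 0.131% (1 segment) for ENR. At an unadjusted p under 0.05 there were 2 of the 13 imprinted segments in each comparison, Slc38a4 and Gnas segment 1, beside 67 of all 761 segments for aging and 35 for ENR. For aging, 8 of 13 segments were higher in aged mice and the median difference was 2.09 points, beside −3.39 over all segments. For ENR, 6 of 13 were higher and the median was −1.60 points, beside −1.21 over all segments.

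Differences over 25 points were found in 5 of the 13 segments (38.5%) for aging and 4 (30.8%) for ENR, beside 13.5% and 9.2% of all segments. The SE of an imprinted difference had a median of 16.3 points for aging and 15.7 for ENR, beside 14.0 and 13.8 over all segments. The 2 largest differences came from loci with few mice. Slc38a4 codes for an amino acid transporter, and its segment, chr15:97055184-97055321, holds 7 CpGs in an intron. The 7 young STD mice ranged from 0% through a median of 0% to 100%. The 4 aged STD mice had 54.2%, 85.7%, 100% and 100%, and the 6 aged ENR mice ranged from 0% through 19.1% to 59.9%. Aged STD mice were high, but 2 young mice and 1 aged ENR mouse reached into their range. The difference was 56.3 ± 17.8 points (SE, limma adjusted p = 0.343) for aging and −61.4 ± 18.4 points (adjusted p = 0.476) for ENR.

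At Gnas segment 1, the 3 young STD mice had 5.33%, 80% and 100%. The 3 aged STD mice had 0%, 1.67% and 20%, and the 5 aged ENR mice had 0%, 53.1%, 80%, 90.7% and 100%. The aged STD values were low, and 1 mouse of each other group fell among them. The difference was −54.2 ± 24.8 points (SE, limma adjusted p = 0.516) for aging and 57.0 ± 22.2 points (adjusted p = 0.873) for ENR. The aging difference was −82.2 points without young STD mouse 3 and −35.4 without young STD mouse 2. The 3 segments with the most CpGs had the smallest SEs of the 13. Their differences for aging were 7.76 ± 9.24 points at Zrsr1 segment 1, 3.48 ± 11.6 at Gnas segment 3 and −16.6 ± 10.5 at Plagl1 (adjusted p = 0.848, 0.938 and 0.752). Without 1 mouse, that of Zrsr1 segment 1 ran from 4.77 (without young STD mouse 4) to 12.2 points (without young STD mouse 1). The ENR differences of the 3 segments were −2.50 ± 9.24, 4.10 ± 11.6 and −4.71 ± 10.5 points (adjusted p = 0.995, 0.994 and 0.994). Each of these ENR differences, and the aging difference of Gnas segment 3, changed sign for at least 1 mouse left out. With SEs of this size, smaller differences could not have been told from the spread between mice.

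The windows of 27 genes with at least 4 CpGs were fitted with those of all 21324 genes, of which limma called 0.00469% for aging and 0.0141% for ENR. None of the 27 was called in either comparison, with 1 (Nnat) at an unadjusted p under 0.05 for aging and 2 (Impact and Igf2r) for ENR. Of all 21324 windows, 1171 and 1032 had such a p. The mean level lay between 35% and 65% for 10 of the 27 (37.0%), beside 8.25% of all genes. Nnat was −35.7 ± 15.8 points for aging (SE, limma adjusted p = 0.879). Impact was −19.8 ± 9.15 points for ENR (adjusted p = 0.939) and −9.69 points without aged ENR mouse 3, and Igf2r, with 4 mice a group, was 8.94 ± 2.38 points (adjusted p = 0.939). Among the 17 tested maternally marked genes, 11 were higher in aged mice with a median of 4.08 points, and 6 were higher after ENR with a median of −5.29 points. Of the 4 tested genes of paternally marked domains, 3 were higher in aged mice (median 1.59 points) and 1 after ENR (−1.82). Of the 6 tested further genes, 1 was higher in aged mice (−3.69) and 2 after ENR (−2.22). All 27 together had 15 higher in aged mice (0.928) and 9 after ENR (−4.28). Of all 21324 genes, 10348 were higher in aged mice and 9621 after ENR, with medians of −0.0357 and −0.201 points. Of the 37 tested other imprinted genes, 14 were higher in aged mice and 25 after ENR, and 2 and 0 had an unadjusted p under 0.05. In a list of 8 genes whose products keep imprints, among them Zfp57, Trim28 and Dnmt1, 7 were tested, 3 were higher in aged mice and 6 after ENR, and 1 and 0 had an unadjusted p under 0.05. None of these genes was called by limma.

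Calls on single CpGs needed more than 25 points of difference as well as a limma adjusted p under 0.05. None of the 850 was called for aging, with 19 (2.24%) at an unadjusted p under 0.05, and 1 was called for ENR, with 29 (3.41%) at an unadjusted p under 0.05. Over all CpGs 2.23% and 1.9% had such a p. Of all CpGs, 0.00475% were called for aging and 0.00432% for ENR (33 and 30 CpGs). Leaving out 1 mouse gave 31 to 213 called CpGs for aging and 29 to 204 for ENR, both highest without aged STD mouse 6. In these fits a CpG needed 1 mouse fewer in each group than in the main fit. A difference over 25 points, whatever its p, was found at 182 (21.4%) of the 850 for aging and at 132 (15.5%) for ENR, beside 9.16% and 8.33% of all CpGs.

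The called CpG lies in Impact, 251 bp inside an annotated internal start. This start is near the 3′ end of the gene, far from its 5′ end. The 6 aged STD mice with a value all had 100%. The 4 aged ENR mice had 0%, 0%, 10% and 45.8%, and the 5 young STD mice had 52.6%, 70.3%, 79.2%, 100% and 100%. Aged ENR mice were lower than every other mouse, by 86.0 ± 10.2 points from aged STD (SE, limma adjusted p = 0.0400). The 5 other CpGs of the same fragment end had an aged ENR mean of 70% each, against 83.3% to 100% in aged STD mice, and their differences were −13.3 to −30 points. Their young STD means were 88.8% to 100%. The call was lost when any 1 of 8 mice was left out (young STD 3 and 8, aged STD 1, 2 and 8, aged ENR 3, 4 and 8), with adjusted p up to 0.0971, and on a log2 scale (limma adjusted p = 0.102). The difference itself ran from −96.7 to −81.4 points without 1 mouse.

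The CpGs with the largest differences, selected for that size among the 850, were otherwise not called. A Peg3 and Usp29 CpG at chr7:6731752 had 52%, 100%, 100% and 100% in 4 young STD mice and 0%, 0% and 5.88% in 3 aged STD mice. Its difference was −86.0 ± 18.01 points (SE, limma adjusted p = 1). A Gnas CpG at chr2:174298185 was 100% in all 4 aged STD mice and 0%, 0%, 2.70%, 46.2% and 58.3% in 5 young STD mice, a difference of 78.6 ± 18.7 points (adjusted p = 1). The 5 aged ENR mice had 0%, 0%, 0%, 42.9% and 61.5% at the first of these CpGs and 0%, 60.3%, 61.9%, 78.05% and 100% at the second. For ENR, a Cdkn1c CpG at chr7:143458950 had 0%, 0% and 63.6% in 3 aged STD mice and 75%, 100%, 100%, 100% and 100% in 5 aged ENR mice, a difference of 73.8 ± 18.7 points (adjusted p = 1). The 4 young STD mice had 27.6%, 46.5%, 69.4% and 100%.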

How the data were processed

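RRBS was performed on dentate gyrus DNA of 24 mice. The authors trimmed and mapped the reads to mm10 and counted methylated reads per CpG. The labels name Trim Galore 0.4.0, cutadapt 1.8.1, Bismark 0.16.1 and methylKit 1.5.2, and the methods of the study give other versions of Trim Galore and Bismark. The authors required a minimum of 10 reads per CpG and mouse and 3 such mice per group, and deposited the methylation percent of each CpG, strands apart and mice not pooled. Read numbers behind the percentages are not known, so the precision rests on the spread between mice.

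CpGs were assigned to genes by GENCODE M21. Segments, gene windows (at least 4 CpGs) and CpGs were fitted over the whole table with limma 3.58.1 (R 4.3.3), 3 groups in 1 fit and no covariate, with Benjamini-Hochberg adjustment, and the fits were tested on simulated data. Levels printed for a mouse are plain means of its covered CpGs, and differences come from centred levels. MspI fragments were taken from CCGG sites of GRCm38. The levels of the mice are given for each segment (lowest, median and highest, or mean and SD, in larger groups), and single CpGs are named where called or among the 2 with the largest difference of a comparison. The members, lists and tests were chosen with earlier results of these data known. The replicate numbers 1 to 8 belong to different animals. Permutation tests used 100000 resamples (scipy 1.17.1). Alternatives were other bounds, CpG minimums, joins, windows and mouse minimums, plain means, a log2 scale, autosomes only, a replicate block and leaving out each mouse. Fits without a mouse required 1 mouse fewer in each group.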

Additional observations from a re-analysis of the deposited data

Results flagged for a closer look

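In 96 groups of mice tested, 11 held a mouse whose gap to the next exceeded Dixon's 95% limit, beside about 1 in 20 by chance. At the Snrpn segment, aged STD mouse 3 was at 100%, with the other 6 between 3.71% and 45.0%. The Nap1l5 window was at 100% in aged STD mouse 4, with the others between 17.8% and 53.0%. Kcnq1ot1 was at 55.1% in young STD mouse 8 and at 23.3% in aged ENR mouse 7, with the others at most 6.997% and 5.77%. Inpp5f was at 26.9% in young STD mouse 6 and at 50.6% in aged ENR mouse 3, with the others at most 14.3% and 13.4%. Peg12 was at 83.3% in young STD mouse 7, with the others between 20.8% and 29.1%, and Kcnq1 was at 9.38% in aged ENR mouse 8, with the others at most 3.19%. In aged STD mouse 6, the mouse with the most covered CpGs of its group, 70.6% of the values in the 13 segments lay between 25% and 75%, with the others between 16.2% and 38.9%. The Peg3 and Usp29 CpG at chr7:6731752 was at 52% in young STD mouse 4 and at 100% in the other 3. The Cdkn1c CpG at chr7:143458950 was at 75% in aged ENR mouse 4 and at 100% in the other 4.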

How the results depend on the processing

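Segments needing at least 10 near-50 CpGs numbered 7, at 7 genes, and CpGs with at least 5 mice of each group left 8 segments, beside 13 segments at 11 genes. The other alternatives gave 9 to 19 segments. Of 894 alternative values for the 26 segment differences, 845 kept their direction, and 12 of the 26 kept it under every alternative. Some of these values could not move. An ENR difference does not change without a young mouse, nor an aging difference without an aged ENR mouse. Windows of 1 kb and autosomes only left the segments and their levels as they were. The count of 845 thus overstates how well the differences held. Joining over 250 bp turned Zrsr1 segment 1 to 2.85 and Gnas segment 3 to −12.2 points for ENR. Joining over 1 kb gave 1.06 at Grb10, 0.59 at Zrsr1 segment 1 and 1.24 at Gnas segment 2 for ENR, and 4.08 at Zrsr1 segment 2, −6.04 at Gnas segment 2 and −11.4 at Cdkn1c for aging. At least 5 mice a group gave 8.06 at Zrsr1 segment 1, 3.82 at Gnas segment 2, −0.97 at Gnas segment 3 and 2.99 at Peg10 and Sgce for ENR, and −16.1 at Gnas segment 2 and −8.15 at Peg10 and Sgce for aging. Bounds of 40% to 60% gave −8.15 and 2.99 at Peg10 and Sgce, and −0.78 at Snrpn for aging. The log2 scale gave 0.0497 at Grb10 and 0.0603 at Nnat for ENR. Under other bounds, joins and mouse minimums, each value is that of the overlapping segment with the most CpGs, which need not be the same stretch. Joined over 1 kb, the values printed at Zrsr1 segments 1 and 2 equal those of the whole Zrsr1 window of 64 CpGs. The cause of the other reversals was not tested.

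Without 1 mouse, the ENR difference ran from −3.36 to 24.7 points at Cdkn1c, −13.2 to 1.12 at Gnas segment 2, −2.01 to 9.15 at Gnas segment 3, −10.3 to 4.86 at Grb10, −11.9 to 5.24 at Nnat, −9.97 to 0.785 at Plagl1 and −6.29 to 0.199 at Zrsr1 segment 1. The aging difference ran from −11.9 to 16.2 at Cdkn1c, −7.83 to 10.1 at Gnas segment 2, −1.43 to 9.04 at Gnas segment 3 and −9.15 to 9.37 at Snrpn. For Slc38a4 it ran from 50.2 to 68.2 (limma adjusted p from 0.0886 to 0.5262), and its ENR difference from −71.8 to −55.3 (adjusted p from 0.256 to 0.859). The number of CpGs called ran from 0 to 1 in each comparison. For aging, an Igf2 CpG at chr7:142655692 was called without young STD mouse 5 (−82.7 points, limma adjusted p = 0.0196, against −62.0 and adjusted p = 1 with all mice). The Impact CpG was not called on a log2 scale (limma adjusted p = 0.102) or with the replicate block (adjusted p = 0.565) and was not tested with at least 5 mice a group, so that 0 CpGs were called for ENR under each. Without 1 mouse of the group, the median SD of the 13 segments ran from 26.0 to 30.8 points in young STD, 23.2 to 28.0 in aged STD and 24.8 to 31.9 in aged ENR mice. Without aged STD mouse 5 the median level was 44.4% and the median SD in aged STD mice 24.01 points.

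Same-numbered mice are different animals, and their 24 correlations ran from −0.127 to 0.0971. The same number correlated best in 2 of 48 cases. With the number as a replicate block, 1 imprinted segment was called for ENR, Slc38a4 (−79.2 points, limma adjusted p = 0.0176), among 616 tested.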
